A study of Mus musculus with 12 samples.

Results

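The genes described here are Ppara and 8 genes known in rodent liver as its targets: Fgf21, Pdk4, Angptl4, Vnn1, Cyp4a10, Cyp4a14, Cyp4a31 and Cyp4a32. They were found by name among the probes of a one-colour Agilent expression array, through the accession or a current synonym of the gene on each probe. All 9 genes were on the array, with 15 probes between them, out of 20572 genes and 28434 probes that passed the filter on dim signal. None of the 15 probes was saturated, and each gave a signal well above background on every one of the 12 arrays.

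RNA came from livers of 3 groups of 4 mice, with 1 array per mouse. The groups were E2f1-/- mice, mice labelled E2f2-/-, and wild-type mice on a mixed 129/Sv x C57BL/6 background. Per the treatment protocol, mice of the 3 groups received the liver carcinogen diethylnitrosamine (DEN) once, at 25 mg/kg on postnatal day 14. Once weaned, at 1 month, they were put on a high-fat diet (60% fat by calories), which lasted 32 weeks. Livers were taken at the age of 9 months, 4 h into a fast. In each comparison below, both groups therefore carried the carcinogen and the diet by that protocol. The source field of the E2f1-/- samples names vehicle and chow instead, against their titles, descriptions and characteristics and against the protocol, and the labels do not settle this. The labels do not state the hour of killing, the sex of the animals, the strain background of the knockout mice or which part of each gene was deleted.

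The E2f1 probe was lower in E2f1-/- livers than in wild-type livers (log2 difference -0.83 ± 0.19 SE, adjusted p = 0.0107 in limma, n = 4 each). The E2f2 probe was not shown to be lower in the livers labelled E2f2-/- (-0.29 ± 0.21, adjusted p = 0.361), although it was lower in E2f1-/- livers (-1.51 ± 0.21, adjusted p = 0.00136). Against E2f1-/- livers, E2f2-labelled livers had a higher E2f2 level (1.22 ± 0.21, limma adjusted p = 0.0106). The E2f1 level was not called between these 2 groups (0.64 ± 0.19, limma adjusted p = 0.148). Whether either probe lies in the deleted part is not known. The livers of the second group are called E2f2-labelled below for that reason. The 75th percentile of an array's signal ranged from 108 to 212 intensity units, and precision is limited by the number of arrays. Each of 4 slides held 1 array of each group, always in the same column for a group, so array column and group cannot be told apart. The 12 hepatocyte markers examined were well above background on each array of the 3 groups, and 3 were called higher in E2f1-/- and 2 in E2f2-labelled livers, with no fall called. Of 7 tested stellate cell markers, 3 were called lower in E2f1-/- and 4 in E2f2-labelled livers, and 2 of 7 endothelial markers were lower in each. Of 10 macrophage markers, 2 were higher and 3 lower in E2f1-/- livers, and 2 higher and 4 lower in E2f2-labelled livers. Of 5 cholangiocyte markers 1 was lower and of 2 exocrine pancreas markers 1 was higher in each, 2 of 6 neutrophil markers were lower in E2f1-/- livers, 1 of 5 T and NK cell markers was lower in E2f2-labelled livers, and no skeletal muscle marker passed the filter. Among all genes tested, 12.8% were called higher and 7.48% lower in E2f1-/- livers, and 12.5% and 7.85% in E2f2-labelled livers. The part of these cell types in the results below was not tested.

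PPARA is a nuclear receptor of hepatocytes that binds fatty acids and their derivatives. It acts as a dimer with RXRA on the promoters of genes for fatty acid oxidation, and it is most active in fasting and on fatty diets. Its targets include enzymes that turn acetyl-CoA from fat into ketone bodies. FGF21 and ANGPTL4 are secreted proteins, PDK4 slows the entry of pyruvate into the citric acid cycle, and vanin-1 (Vnn1) recycles the precursor of coenzyme A. The CYP4A enzymes hydroxylate the far end of fatty acids, and their mRNAs are classical markers of PPARA activity in rodents.

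The Cyp4a members are neighbours on chromosome 4. Probes of Cyp4a10 and Cyp4a31 resemble each other closely, so their sequences are shown first, with the bases at which they differ. The files place the probe of Cyp4a14 at chr4:115158914-115158973, those of Cyp4a10 from chr4:115198463 onwards, those of Cyp4a31 from chr4:115242872 and that of Cyp4a32 at chr4:115294852-115294911 (build mm9). The following pair of probes covers the same 60 bases of 2 genes, starting at base 1193 of the Cyp4a10 transcript and at base 1181 of the Cyp4a31 transcript that the files name. Capitals mark the 6 bases at which they differ, which leaves them 90% identical.
Cyp4a10, probe A_55_P2092030, chr4:115198463-115198522, + strand: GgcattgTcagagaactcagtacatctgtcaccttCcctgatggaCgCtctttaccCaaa
Cyp4a31, probe A_55_P1952399, chr4:115243923-115243982, + strand: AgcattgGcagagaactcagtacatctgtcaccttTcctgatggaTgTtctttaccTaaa

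The brightest probes of the same 2 genes lie nearer the 3′ end of the transcripts and overlap over 47 bases with 3 mismatches. A stretch of 30 bases of each is printed because it carries only 1 of the differences, again in capitals.
Cyp4a10, probe A_51_P254895, chr4:115206200-115206229, + strand: acGagtttctccatcttccctcctttctgc
Cyp4a31, probe A_55_P2050628, chr4:115251566-115251595, + strand: acAagtttctccatcttccctcctttctgc

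One more Cyp4a31 probe, which the files list for transcripts of both Cyp4a10 and Cyp4a31, and the first 30 bases of the only Cyp4a32 probe complete the set on which the results turn.
Cyp4a31, probe A_55_P2024033, chr4:115242872-115242931, + strand: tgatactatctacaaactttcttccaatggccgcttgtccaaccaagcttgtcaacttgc
Cyp4a32, probe A_55_P1987620, chr4:115294852-115294881, + strand: agacccctaaaaactccaagatagttttcc

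The files also list probe A_55_P2092030 for transcripts of Cyp4a10 and Cyp4a32. Probes that differ at so few bases can share labelled RNA, so values of Cyp4a10, Cyp4a31 and Cyp4a32 are uncertain as values of single genes. No other member shared a probe with another gene in the files' listing.

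A level is the log2 of the background-subtracted signal, set relative to the 75th percentile of its array, which lies at a level of 0. Levels of different probes are not comparable with each other. Differences are on the same log2 scale, with their standard error (SE) and with p-values from a limma fit of the 12 arrays, adjusted by the Benjamini-Hochberg method over the 20572 genes and called under 0.05. Array values are listed in the order of replicates 1 to 4. The array values and group means of the 9 genes are plotted below.

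**Figure D1:**
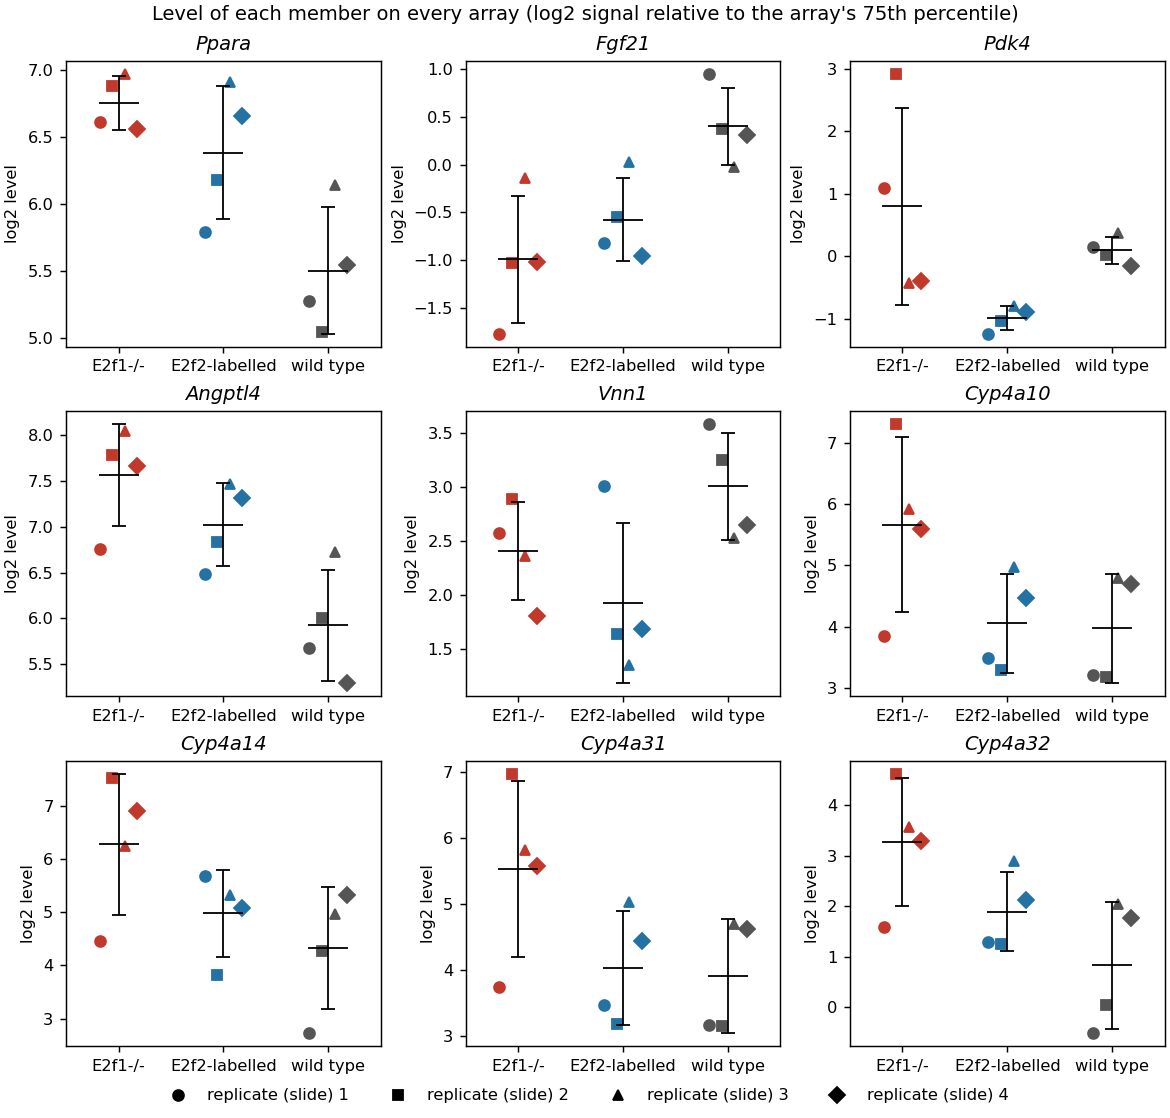
Level of each of the 9 genes on every array (log2 signal relative to the array's 75th percentile, y axis) in E2f1-/-, E2f2-labelled and wild-type livers (x axis), with the brightest probe standing for each gene. Symbols give the replicate, which is also the slide, and bars the mean and SD of 4 arrays. Ppara and Angptl4 were higher on each E2f1-/- array than on each wild-type array, and E2f1-/- replicate 2 was the highest array for Pdk4 and the 4 Cyp4a genes.

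Ppara itself, Angptl4 and Cyp4a32 were higher and Fgf21 was lower in E2f1-/- than in wild-type livers. Those 4 of the 9 genes were called, 3 higher and 1 lower, where 20.3% of all genes were called (12.8% higher and 7.48% lower). In E2f2-labelled livers, 2 of the 9 genes were called, Ppara and Angptl4, both higher, where 20.3% of all genes were called (12.5% higher and 7.85% lower). No member was called lower there by limma, while Fgf21 and Vnn1 had an unadjusted p under 0.05. The median difference of the 9 genes was 1.62 in E2f1-/- livers and 0.12 in E2f2-labelled livers, beside 0.12 and 0.15 for all genes tested. Both medians are the values of Cyp4a31, whose probes can share labelled RNA with those of Cyp4a10 and Cyp4a32. They therefore do not describe a shift of 9 separate genes. Without overlap between the arrays of the 2 groups, 2 members were higher (Ppara and Angptl4) and 1 was lower (Fgf21) in E2f1-/- livers, where 14% of all genes were higher and 6.98% lower in this sense. The 2 comparisons with wild type share their wild-type arrays. Of all called genes, 63.1% were higher in E2f1-/- livers and 61.4% in E2f2-labelled livers, and quantile normalization, which forces 1 distribution on the arrays, gave 50.4% and 49.5%.

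None of the 9 genes was called by limma between E2f2-labelled and E2f1-/- livers, where 1.59% of all genes were called (0.846% higher and 0.749% lower). Their median difference was -1.29, the value of Cyp4a14, beside 0.01 for all genes. Pdk4, Cyp4a10 and Cyp4a31 had an unadjusted p under 0.05 in that comparison, all lower in E2f2-labelled livers. The intervals of the differences are wide, as the plot of differences shows, so a member called in one comparison with wild type and not in the other is not shown to differ between the 2 genotypes.

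**Figure D2:**
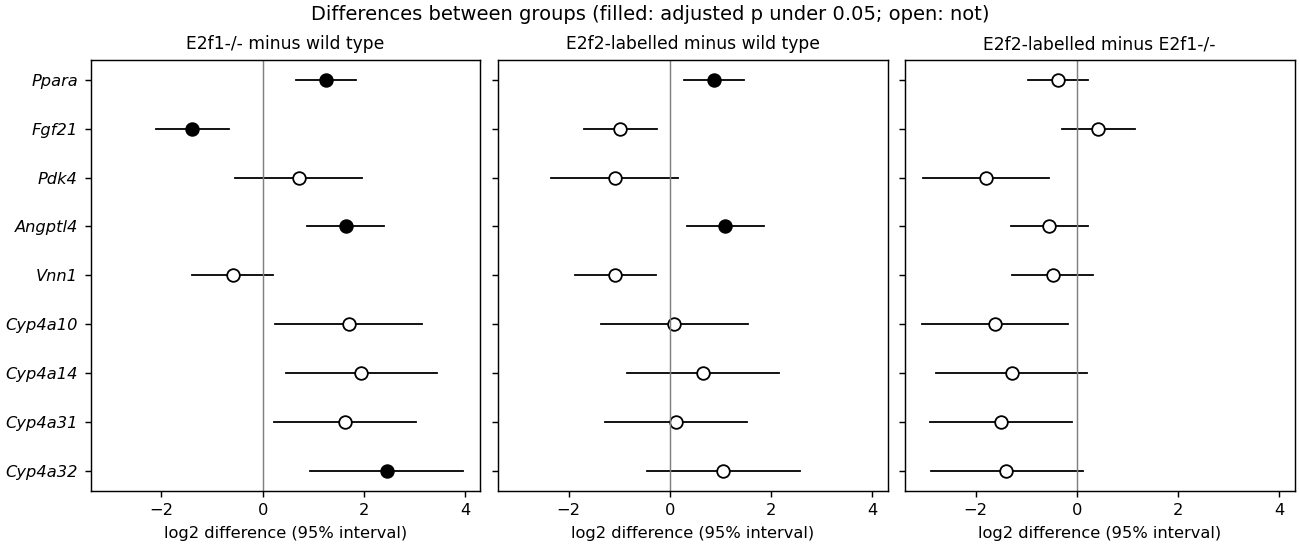
Log2 differences of the 9 genes (x axis) with 95% intervals in the 3 comparisons. Filled points had an adjusted p under 0.05. Ppara and Angptl4 were called in both comparisons with wild type, Fgf21 and Cyp4a32 in that of E2f1-/- livers only, and no gene was called between E2f2-labelled and E2f1-/- livers.

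Ppara, the receptor, was higher in both groups. Its brightest probe (chr15:85632110-85632169, mm9) had levels of 6.61, 6.88, 6.97 and 6.56 in E2f1-/- livers, 5.79, 6.18, 6.91 and 6.66 in E2f2-labelled livers, and 5.28, 5.05, 6.14 and 5.55 in wild-type livers. The E2f1-/- arrays lay above each wild-type array, while the lowest E2f2-labelled array lay below the highest wild-type array, that of replicate 3. Ppara was 2.38-fold higher in E2f1-/- livers (log2 difference 1.25 ± 0.27, adjusted p = 0.00908) and 1.84-fold higher in E2f2-labelled livers (0.88 ± 0.27, adjusted p = 0.0397). Within slides, the difference was positive on 4 of 4 slides in each comparison, from 0.83 to 1.84 in E2f1-/- livers and from 0.51 to 1.14 in E2f2-labelled livers.

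Both other Ppara probes were called in the same direction in both comparisons when each probe was its own feature. The probe farthest downstream, at base 7356 of the transcript, had levels of 4.77, 5.21, 4.81 and 4.52 in E2f1-/- livers, 3.95, 4.65, 5.11 and 4.69 in E2f2-labelled livers, and 3.26, 3.03, 4.13 and 3.41 in wild-type livers. It was higher by 1.37 ± 0.28 in E2f1-/- livers (limma adjusted p = 0.00684) and by 1.14 ± 0.28 in E2f2-labelled livers (limma adjusted p = 0.015). The remaining probe, at base 2697, was higher by 1.21 ± 0.30 (limma adjusted p = 0.0171) and 0.98 ± 0.30 (limma adjusted p = 0.0405) in the same comparisons. The 3 probes report on 1 gene in the same RNA and are not independent replicates.

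The E2f1-/- call of Ppara held under each of the 24 other settings and left-out arrays tried (adjusted p from 0.00206 to 0.0303). The E2f2-labelled call held in 11 of the 24 (adjusted p from 0.00947 to 0.114), and it was lost without any 1 of E2f1-/- replicate 2, E2f2-labelled replicates 2, 3 or 4, or wild-type replicates 1, 2 or 4.

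Angptl4 moved with Ppara. It encodes a secreted inhibitor of lipoprotein lipase, the enzyme that releases fatty acids from circulating triglyceride. Its probe (chr17:33911880-33911939, mm9) had levels of 6.76, 7.79, 8.05 and 7.66 in E2f1-/- livers, 6.48, 6.83, 7.47 and 7.32 in E2f2-labelled livers, and 5.68, 6.00, 6.72 and 5.29 in wild-type livers. The lowest E2f1-/- array, 6.76, lay just above the highest wild-type array, 6.72, and 1 of 4 E2f2-labelled arrays lay below that array. The difference was 3.12-fold in E2f1-/- livers (1.64 ± 0.35, adjusted p = 0.00799) and 2.14-fold in E2f2-labelled livers (1.10 ± 0.35, adjusted p = 0.0429). It was positive on 4 of 4 slides in both comparisons.

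The E2f1-/- call of Angptl4 held under each of the 24 alternatives (adjusted p from 0.00191 to 0.0281). The E2f2-labelled call held in 10 of them (adjusted p from 0.0103 to 0.112) and was lost without any 1 of E2f1-/- replicates 2 or 4, E2f2-labelled replicates 2, 3 or 4, or wild-type replicates 1, 2 or 4.

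The lipase that ANGPTL4 inhibits and its anchor moved the other way. Lpl, the lipase, was lower in both groups, at -2.57 ± 0.38 in E2f1-/- livers (adjusted p = 0.00164) and -3.68 ± 0.38 in E2f2-labelled livers (adjusted p = 0.000132). Gpihbp1, which holds the lipase on capillary walls, fell by 0.83 ± 0.17 in E2f1-/- livers (limma adjusted p = 0.00744) and by 0.61 ± 0.17 in E2f2-labelled livers (limma adjusted p = 0.0274). The second of these calls was lost without any 1 of E2f2-labelled replicates 1 or 4 or wild-type replicates 1 or 4. Lpl is abundant in fat cells. The summed linear level of the 4 tested adipocyte markers, in multiples of the 75th percentile, was 64.4 in E2f1-/- replicate 1, 4.55 to 8.26 in the other E2f1-/- livers, 5.59 to 8.28 in E2f2-labelled livers and 17.4 to 38.0 in wild-type livers. None of these 4 was called in E2f1-/- livers (median difference -0.51). In E2f2-labelled livers Fabp4 (-3.53 ± 0.72, limma adjusted p = 0.00677) and Cidec (-3.22 ± 0.78, adjusted p = 0.014) were called lower and Adrb3 higher (1.42 ± 0.36, adjusted p = 0.0164). Of the full list of 8, Adipoq and Plin1 were not well above background on any E2f2-labelled or wild-type array, and each of the 8 was on 1 or more E2f1-/- arrays. The part of fat cells in these differences was not tested. In whole liver, fewer cells of a type and less RNA per cell cannot be told apart.

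Fgf21, a hepatic hormone of fasting and of protein shortage, was lower in E2f1-/- livers, where Ppara was higher. Its probe (chr7:52869305-52869364, mm9) had levels of -1.77, -1.03, -0.14 and -1.02 in E2f1-/- livers, -0.82, -0.55, 0.03 and -0.96 in E2f2-labelled livers, and 0.95, 0.37, -0.02 and 0.31 in wild-type livers. Each E2f1-/- array lay below each wild-type array, and 3 of 4 E2f2-labelled arrays did so. In E2f1-/- livers Fgf21 was 2.63-fold lower (-1.39 ± 0.33, adjusted p = 0.0132), and this call held under the 24 alternatives (adjusted p from 0.00425 to 0.0357).

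On slide 3 the E2f1-/- and wild-type arrays differed by only -0.12 for Fgf21, against -2.72, -1.40 and -1.33 on slides 1, 2 and 4. In E2f2-labelled livers the difference of -0.98 ± 0.33 missed the threshold (adjusted p = 0.055, 95% interval -1.70 to -0.26). It passed in 8 of the 24 alternatives, among them the fits without E2f1-/- replicates 1 or 3, E2f2-labelled replicate 3 or wild-type replicate 3. Klb, the co-receptor of FGF21, was not called (0.70 ± 0.23, adjusted p = 0.0531 in E2f1-/- livers and 0.39 ± 0.23, adjusted p = 0.255 in E2f2-labelled livers). Fgfr1, a receptor that works with Klb, was called in E2f2-labelled livers by its brightest probe (1.67 ± 0.36, adjusted p = 0.00877) and not in E2f1-/- livers (0.73 ± 0.36, adjusted p = 0.184). The other 2 Fgfr1 probes were not called in E2f2-labelled livers, at 0.40 and 0.97.

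Pdk4 was spread unevenly between livers and was not called. The kinase it encodes phosphorylates and slows pyruvate dehydrogenase, which spares glucose when fat is burned. Its probe (chr6:5433441-5433500, mm9) had levels of 1.09, 2.92, -0.43 and -0.39 in E2f1-/- livers, -1.24, -1.04, -0.80 and -0.89 in E2f2-labelled livers, and 0.14, 0.02, 0.37 and -0.16 in wild-type livers. The 4 E2f2-labelled arrays lay together below each array of the other groups, and the E2f1-/- arrays fell on both sides of the wild-type range, 2 above it and 2 below.

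The Pdk4 difference was 0.71 ± 0.58 in E2f1-/- livers (adjusted p = 0.436) and fell to 0.00 without E2f1-/- replicate 2. It was -1.08 ± 0.58 in E2f2-labelled livers (adjusted p = 0.204) and negative on 4 of 4 slides, from -1.38 to -0.73. Between E2f2-labelled and E2f1-/- livers it was -1.79 ± 0.58 (adjusted p = 0.202, 95% interval -3.04 to -0.54). Pdk4 was the 1 member whose E2f2-labelled arrays did not overlap with the wild-type arrays, where 7.48% of all genes were lower without overlap and 15.1% higher. It was also the 1 member whose E2f2-labelled arrays did not overlap with the E2f1-/- arrays, where 4.19% of all genes were lower and 4.68% higher. The shared spread of the fit includes the wide E2f1-/- group. With only E2f2-labelled and wild-type arrays in the fit, the same difference had a limma adjusted p of 0.00605, and without E2f1-/- replicate 2 it had one of 0.0295.

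Genes that act with single members were a list of 24, of which 23 were tested. In E2f1-/- livers 5 were called higher and 3 lower (median 0.32), beside 12.8% and 7.48% of all genes. In E2f2-labelled livers 6 were called higher and 3 lower (median 0.14), beside 12.5% and 7.85% of all genes. The number lower in E2f2-labelled livers was 5 with the slide as a block, 1 without any 1 of E2f2-labelled replicate 4 or wild-type replicates 2 or 4, and 0 without wild-type replicate 1. In E2f1-/- livers it was 1 without wild-type replicate 2. The list holds the partners of FGF21 and ANGPTL4 named above, and genes that act on the same enzyme as PDK4. Pdp2, one of the phosphatases that reactivate pyruvate dehydrogenase, rose by 1.59 ± 0.30 in E2f1-/- livers (adjusted p = 0.00469) and by 1.23 ± 0.30 in E2f2-labelled livers (adjusted p = 0.0137). The other phosphatase gene, Pdp1, fell by 1.57 ± 0.40 (adjusted p = 0.0178) and by 1.41 ± 0.40 (adjusted p = 0.0283). Its call was lost without E2f1-/- replicate 3 or wild-type replicate 2 in E2f1-/- livers, and without any 1 of E2f2-labelled replicates 3 or 4 or wild-type replicates 1 or 2 in E2f2-labelled livers. The kinase gene Pdk3 was well above background on 0 of 4 E2f1-/-, 1 of 4 E2f2-labelled and 3 of 4 wild-type arrays. It was at least 1.33-fold lower in E2f1-/- livers, counting from the lowest signal well above background. Its limma call there (adjusted p = 0.0152) uses the dim values and is no test of this bound. Under normexp background correction neither group was called (limma adjusted p = 0.521 and 0.515). Without any 1 of wild-type replicates 1, 2 or 4 Pdk3 missed the filter on dim probes. Pdhb, a subunit of the enzyme itself, had mean levels of 3.92 ± 0.22 in E2f1-/- livers, 5.30 ± 0.30 in E2f2-labelled livers and 3.15 ± 0.14 in wild-type livers by its brightest probe (SD, n = 4 each). Its 3 probes were called higher than wild type in both groups, by 0.77 to 0.81 in E2f1-/- livers and by 0.74 to 2.15 in E2f2-labelled livers. Between E2f2-labelled and E2f1-/- livers they disagreed. The brightest gave 1.37 ± 0.18 (limma adjusted p = 0.0013), and the other 2 gave 0.10 and -0.07 and were not called (limma adjusted p = 0.909 and 0.948 over all probes).

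Vnn1 was lower in level in both groups without a call. It encodes vanin-1, a membrane pantetheinase, and its probe lies at chr10:23624524-23624583 (mm9). Levels were 2.57, 2.89, 2.36 and 1.81 in E2f1-/- livers, 3.01, 1.64, 1.36 and 1.69 in E2f2-labelled livers, and 3.58, 3.25, 2.53 and 2.65 in wild-type livers. In E2f2-labelled livers 3 of 4 arrays lay below each wild-type array, and replicate 1 lay within the wild-type range.

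The difference of Vnn1 was -0.59 ± 0.37 in E2f1-/- livers (adjusted p = 0.288) and -1.08 ± 0.37 in E2f2-labelled livers (adjusted p = 0.0558). It was negative on 4 of 4 slides in both comparisons, and with the slide as a block in the limma fit it was called in E2f2-labelled livers (adjusted p = 0.0147). Without E2f2-labelled replicate 1 the limma difference there was -1.44 (adjusted p = 0.00986), and without wild-type replicate 3 it was -1.23 (adjusted p = 0.0388). Downstream of vanin-1, Pank1, the kinase that starts coenzyme A synthesis, rose by 1.73 ± 0.19 in E2f1-/- livers (adjusted p = 0.000347) and by 1.30 ± 0.19 in E2f2-labelled livers (adjusted p = 0.00125). Coasy, which completes that synthesis, rose by 0.87 ± 0.15 (adjusted p = 0.00374) and 0.89 ± 0.15 (adjusted p = 0.00319).

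The plot of differences within slides sets the 4 slides apart for each gene. Slide 2 carried E2f1-/- replicate 2, and it gave the widest E2f1-/- difference for Ppara (1.84), for Pdk4 and for the 4 Cyp4a genes.

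**Figure D3:**
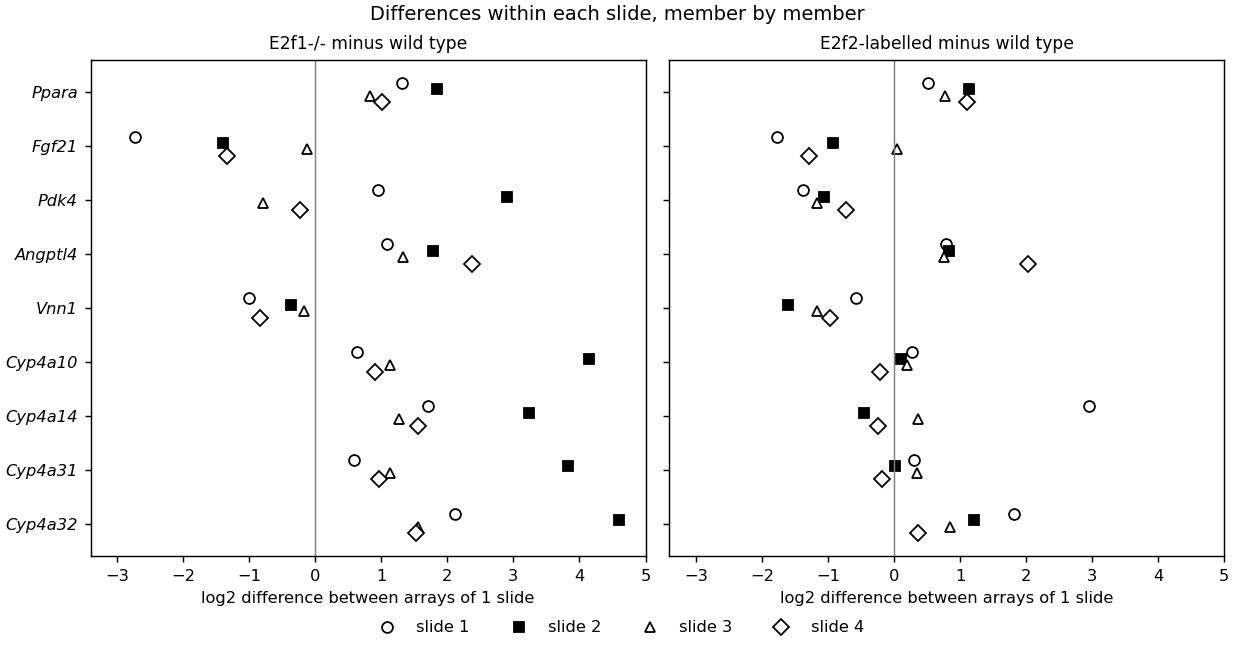
Log2 differences between the arrays of 1 slide (x axis) for the 9 genes, E2f1-/- minus wild type on the left and E2f2-labelled minus wild type on the right. Symbols give the slide, with slide 2 filled. For Cyp4a10 slide 2 gave 4.14 in E2f1-/- livers, against 0.63 to 1.13 on the other slides, and the E2f2-labelled differences lay between -0.22 and 0.27.

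The 4 Cyp4a genes were higher in level in E2f1-/- livers, with 1 call among them, and spread widely between livers. Cyp4a32 had levels of 1.59, 4.63, 3.58 and 3.29 in E2f1-/- livers, 1.29, 1.24, 2.89 and 2.13 in E2f2-labelled livers, and -0.52, 0.03, 2.04 and 1.76 in wild-type livers. Replicates 1 and 2 of the wild-type group lay about 2 log2 units below replicates 3 and 4, and E2f1-/- replicate 1 overlapped with the wild-type range. Cyp4a32 was 5.45-fold higher in E2f1-/- livers (2.45 ± 0.69, adjusted p = 0.0273), with 4 of 4 slides positive from 1.53 to 4.60.

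The Cyp4a32 call was lost in 7 of the 24 alternatives (adjusted p over the 24 from 0.01 to 0.0801). Among them were the fits without any 1 of E2f1-/- replicates 2, 3 or 4 or wild-type replicates 1 or 2. In E2f2-labelled livers Cyp4a32 was not called (1.06 ± 0.69, adjusted p = 0.302), although 4 of 4 slides were positive.

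Cyp4a14 had levels of 4.45, 7.52, 6.24 and 6.89 in E2f1-/- livers, 5.68, 3.82, 5.33 and 5.08 in E2f2-labelled livers, and 2.73, 4.28, 4.97 and 5.33 in wild-type livers. The E2f1-/- array of replicate 1 lay within the wild-type range and the other 3 above it. The difference was 3.85-fold in E2f1-/- livers (1.94 ± 0.69, adjusted p = 0.0649) and 1.57-fold in E2f2-labelled livers (0.65 ± 0.69, adjusted p = 0.535), and neither was called. The E2f2-labelled difference of 2.95 on slide 1 stood against -0.46, 0.36 and -0.25 on slides 2, 3 and 4.

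Cyp4a10, by its brightest probe, had levels of 3.84, 7.32, 5.93 and 5.59 in E2f1-/- livers, 3.48, 3.28, 4.98 and 4.47 in E2f2-labelled livers, and 3.21, 3.17, 4.79 and 4.70 in wild-type livers. The E2f2-labelled and wild-type arrays nearly coincided within each slide, at differences from -0.22 to 0.27. Cyp4a10 was not called, at 1.70 ± 0.67 in E2f1-/- livers (adjusted p = 0.0919) and 0.09 ± 0.67 in E2f2-labelled livers (adjusted p = 0.94, 95% interval -1.36 to 1.54). The second of these values turned to -0.12 under quantile normalization.

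Cyp4a31, by its brightest probe, followed Cyp4a10 from array to array. Its levels were 3.75, 6.98, 5.82 and 5.58 in E2f1-/- livers, 3.47, 3.18, 5.04 and 4.45 in E2f2-labelled livers, and 3.17, 3.16, 4.70 and 4.62 in wild-type livers. Differences were 1.62 ± 0.64 (adjusted p = 0.0968) and 0.12 ± 0.64 (adjusted p = 0.917). The 2 probes are the overlapping pair of which 30 bases are printed above, and after each probe's own mean was taken off, their levels differed by a root mean square of 0.09 over the 12 arrays.

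E2f1-/- replicates 1 and 2 carried opposite weight for these genes. Without replicate 1, which had the adipocyte marker sum of 64.4, limma called Cyp4a10 (2.31, adjusted p = 0.019), Cyp4a14 (2.55, adjusted p = 0.0159) and Cyp4a31 (2.21, adjusted p = 0.0195) as well. In that fit 6 members were called higher in E2f1-/- livers, where 2445 of 20341 genes were. Cyp4a10, Cyp4a31 and Cyp4a32 can share labelled RNA, so these are not 6 separate results. Without replicate 2, the highest array, Cyp4a32 lost its call (1.99, adjusted p = 0.0725). Neither array is marked as different in the labels.

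Other probes of Cyp4a10 and Cyp4a31 gave other answers, as the plot of the 8 Cyp4a probes shows. Probe A_55_P2092030 of Cyp4a10, which also lists Cyp4a32, was called in E2f1-/- livers (2.27 ± 0.57, limma adjusted p = 0.0169 over all probes) and not in E2f2-labelled livers (0.76 ± 0.57, adjusted p = 0.371). Its counterpart on Cyp4a31, A_55_P1952399, had levels of 1.11, 3.77, 2.69 and 2.27 in E2f1-/- livers, 1.54, 1.30, 2.34 and 2.07 in E2f2-labelled livers, and -0.49, -0.17, 1.12 and 0.70 in wild-type livers. Each E2f2-labelled array lay above each wild-type array, where 15.1% of all genes were higher without overlap. The difference was 2.17 ± 0.51 in E2f1-/- livers (adjusted p = 0.0125) and 1.52 ± 0.51 in E2f2-labelled livers (adjusted p = 0.0536).

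The probe listed for both Cyp4a10 and Cyp4a31, A_55_P2024033, pointed the other way in E2f2-labelled livers. Its levels were -1.06, 1.93, 0.33 and -0.14 in E2f1-/- livers, -1.21, -2.17, -1.10 and -1.26 in E2f2-labelled livers, and -1.08, -0.65, -0.69 and -0.62 in wild-type livers. Each E2f2-labelled array lay below each wild-type array, where 7.48% of all genes were lower without overlap. The difference of -0.67 ± 0.49 was not called (limma adjusted p = 0.361). In E2f1-/- livers the difference was 1.03 ± 0.49 (adjusted p = 0.17). The 3 Cyp4a31 probes thus gave 0.12, 1.52 and -0.67 in E2f2-labelled livers, none of them called, so the direction of Cyp4a31 there depended on the probe.

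**Figure D4:**
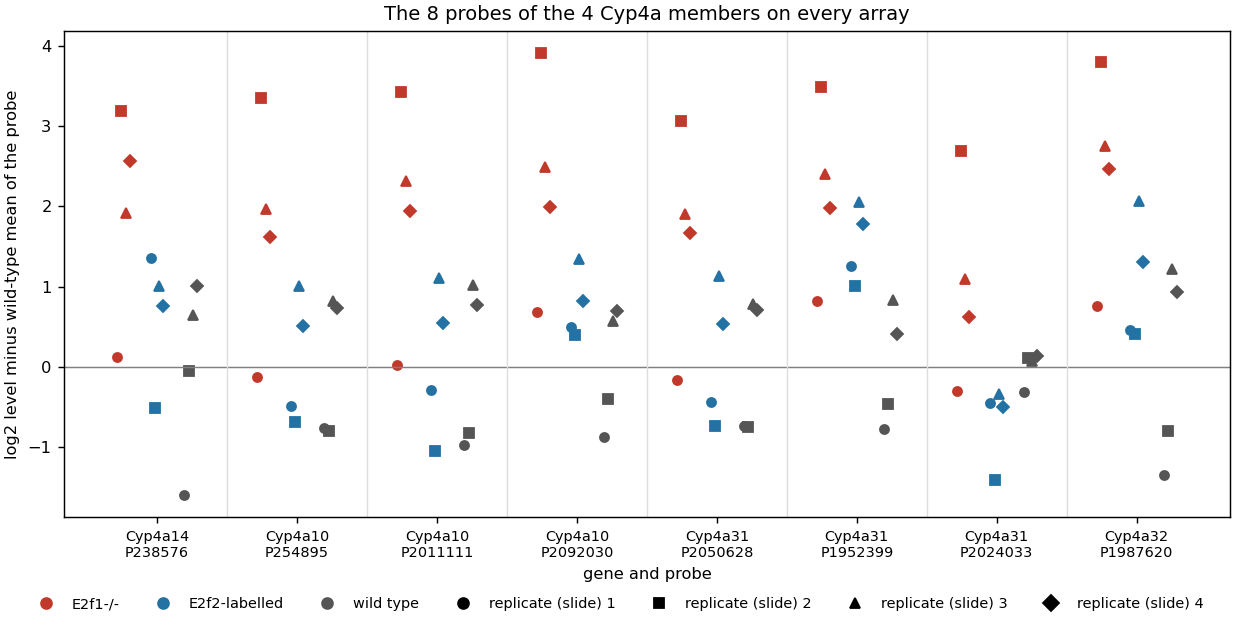
Level of the 8 Cyp4a probes on every array, as log2 level minus the wild-type mean of the same probe (y axis), for each gene and probe (x axis). Colours give the group and symbols the replicate. E2f1-/- replicate 2 was the highest array for each probe, and the E2f2-labelled arrays lay above the wild-type arrays for Cyp4a31 probe P1952399 and below them for P2024033.

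Genes most like a member were taken from all genes by the smallest root mean square difference of log2 level over the 12 arrays, after each gene's own mean was taken off. This is a description without a test. For Ppara they were Cyp2d11 (0.14) and Smim10l1 (0.15), against a spread of the Ppara profile itself of 0.63. For Angptl4 they were Cebpb (0.31), Ugt2a3 (0.31) and Aadac (0.32). For Cyp4a10 they were Cyp4a31 (0.09), Cyp4a32 (0.48) and Acot5 (0.60), and for Cyp4a32 they were Cyp4a10 and Cyp4a31 (0.48 each) and Acaa1b (0.57). For Vnn1 they were Gemin8 (0.28), Rtn4 (0.31) and Lgmn (0.32). Fgf21 was most like Jcad (0.29) and Pdk4, among genes with a current name, most like Cd226 (0.56) at a spread of its own of 1.09.

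Of 9 genes for making and using ketone bodies, 8 were tested, and 2 were called higher and 1 lower in E2f1-/- livers, at a median difference of 0.24. Over all genes, 12.8% were called higher and 7.48% lower there. The thiolase genes Acat1, of mitochondria, and Acat2, of the cytosol, rose by 0.94 ± 0.27 (adjusted p = 0.0289) and 1.22 ± 0.25 (adjusted p = 0.00646) in E2f1-/- livers. By the brightest probes, Acat2 was the 1 gene of the list called in E2f2-labelled livers (1.12 ± 0.25, adjusted p = 0.00943). The list's median difference there was 0.19, and 12.5% of all genes were called higher and 7.85% lower. The Acat1 call was lost without any 1 of E2f1-/- replicates 2 or 3 or wild-type replicates 1 or 2. Slc16a6, a transporter that releases ketone bodies from zebrafish liver, fell by 0.69 ± 0.18 in E2f1-/- livers (adjusted p = 0.018). Its dimmer probe was called lower in both groups by limma over all probes. It gave -1.64 ± 0.23 in E2f1-/- livers (adjusted p = 0.00126) and -1.25 ± 0.23 in E2f2-labelled livers (adjusted p = 0.00411). That probe was well above background on 1 of 4 E2f1-/-, 2 of 4 E2f2-labelled and 4 of 4 wild-type arrays. Bdh1, Bdh2, Oxct1, Aacs and Slc16a1 were not called in either group, with differences from -0.55 to 0.54.

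The count of called genes of the ketone body list was sensitive to the setting. It was 1 higher in E2f1-/- livers under quantile normalization, median centring or the series matrix values, without the filter on dim probes, or with only the 2 groups compared. It was also 1 without any 1 of E2f1-/- replicate 3 or wild-type replicates 1 or 2. In E2f2-labelled livers it was 2 higher with array weights or without wild-type replicate 3, and 1 was called lower with the mean of all tested probes. The fall of Slc16a6 in E2f1-/- livers lost its call without E2f1-/- replicate 4 or wild-type replicate 2.

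**Figure D5:**
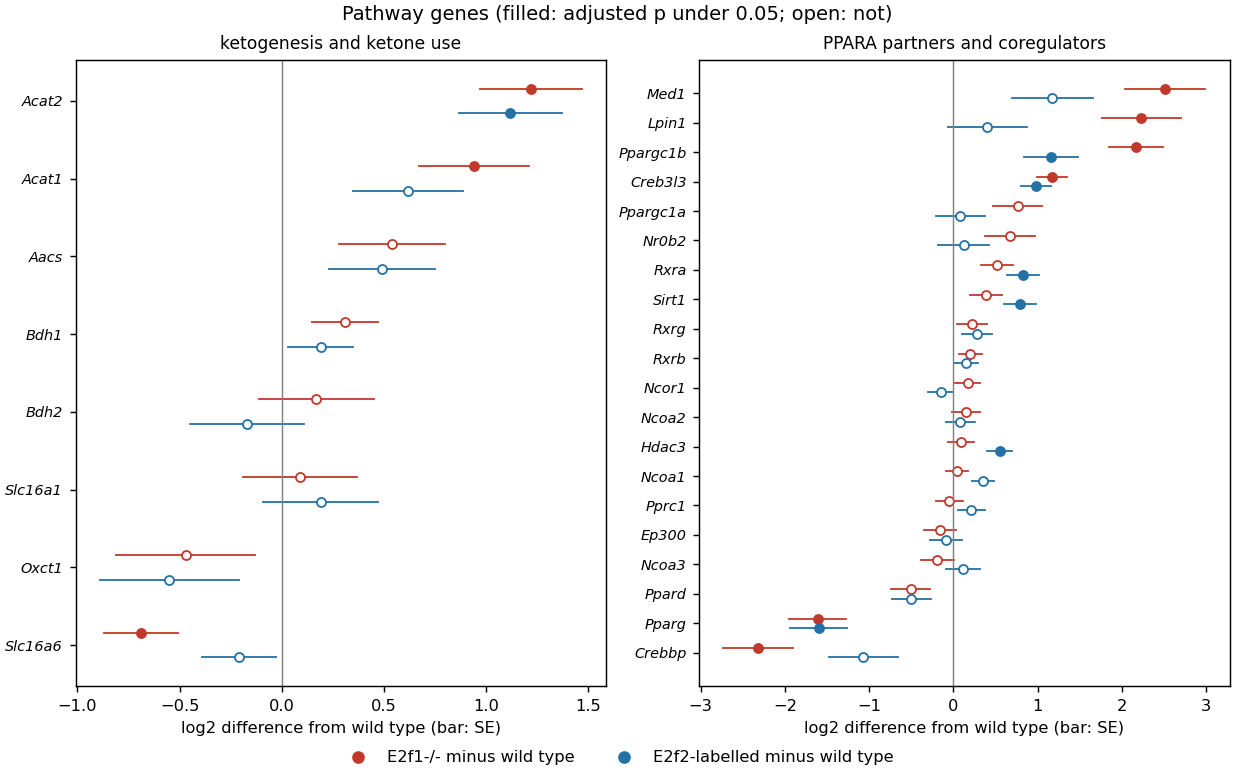
Log2 differences from wild type (x axis, with SE) of the 8 tested genes for making and using ketone bodies and the 20 partners and coregulators of PPARA, in E2f1-/- livers and in E2f2-labelled livers. Filled points had an adjusted p under 0.05. In E2f1-/- livers 2 genes of the ketone body list and 4 partners were called higher, and Pparg was called lower in both groups.

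Among 20 partners and coregulators of PPARA, 4 were called higher and 2 lower in E2f1-/- livers (median 0.19), beside 12.8% and 7.48% of all genes. In E2f2-labelled livers 5 were called higher and 1 lower (median 0.18), beside 12.5% and 7.85% of all genes. The medians over all genes were 0.12 and 0.15. Rxra, the dimer partner, was called in E2f2-labelled livers (0.83 ± 0.19, adjusted p = 0.0116) and not in E2f1-/- livers (0.52 ± 0.19, adjusted p = 0.0768). Its other probe gave the reverse. It was not called in E2f2-labelled livers (0.25) and was called in E2f1-/- livers (0.66 ± 0.16, limma adjusted p = 0.0147 over all probes). Creb3l3, a liver transcription factor that works with PPARA on Fgf21 in fasting, rose by 1.17 ± 0.18 in E2f1-/- livers (adjusted p = 0.00223) and by 0.98 ± 0.18 in E2f2-labelled livers (adjusted p = 0.0046). Its rise stood beside the lower Fgf21 of E2f1-/- livers.

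Coactivators of the receptor moved in both directions. Med1, a Mediator subunit, rose by 2.51 ± 0.48 (adjusted p = 0.00508) and Lpin1 by 2.23 ± 0.47 (adjusted p = 0.00769) in E2f1-/- livers. The other 3 probes of Med1 gave 0.10 to 0.56 in E2f1-/- livers, with the lowest not called. In E2f2-labelled livers these 2 genes were not called (1.17 and 0.40, adjusted p = 0.104 and 0.582). Ppargc1b rose in both groups, by 2.17 ± 0.32 in E2f1-/- livers (adjusted p = 0.00164) and by 1.16 ± 0.32 in E2f2-labelled livers (adjusted p = 0.0245), and Ppargc1a was not called (0.76 ± 0.29, adjusted p = 0.0798, and 0.08 ± 0.29, adjusted p = 0.877). The Ppargc1b call in E2f2-labelled livers was lost without any 1 of E2f2-labelled replicates 3 or 4 or wild-type replicates 1 or 2. Crebbp, a histone acetyltransferase, fell by 2.32 ± 0.41 in E2f1-/- livers (adjusted p = 0.00354) and was at -1.07 ± 0.41 in E2f2-labelled livers (adjusted p = 0.0818). Its other probe gave 0.08 in E2f1-/- livers, so the 2 probes disagreed. Without wild-type replicate 3, 7 partners were called higher in E2f1-/- livers. In E2f2-labelled livers 2 were called lower with the slide as a block, and 3 were called higher without the filter on dim probes, and likewise without any 1 of E2f2-labelled replicate 3 or wild-type replicates 1 or 2.

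Pparg, the related receptor of fat cells that also rises in fatty liver, fell by 1.61 ± 0.34 in E2f1-/- livers (adjusted p = 0.00738) and by 1.60 ± 0.34 in E2f2-labelled livers (adjusted p = 0.00744). Among the E2f1-/- arrays, replicate 1 had a Pparg level of 1.96 and the other 3 lay between 0.64 and 0.76. That array also had the highest adipocyte marker sum.

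Many other known targets of PPARA rose. Of 53 tested, 31 were called higher and 4 lower in E2f1-/- livers (median 0.84), beside 12.8% and 7.48% of all genes. In E2f2-labelled livers 20 were called higher and 5 lower (median 0.64), beside 12.5% and 7.85% of all genes. Acaa1b, a peroxisomal thiolase, rose by 2.05 ± 0.53 (adjusted p = 0.0187) and Retsat by 2.11 ± 0.46 (adjusted p = 0.00931) in E2f1-/- livers, and the Acaa1b call was lost without E2f1-/- replicate 2 or wild-type replicate 2. The 2 probes of Acot5, an acyl-CoA thioesterase, disagreed. The brightest gave 2.35 ± 0.76 in E2f1-/- livers (limma adjusted p = 0.0464). It was well above background on 4 of 4 E2f1-/- and 1 of 4 wild-type arrays. Its call was lost under normexp background correction, quantile normalization, array weights or the slide as a block, and in other alternatives. The other probe gave -0.09 ± 0.28 and stood for the gene without E2f1-/- replicate 2 (-0.22). Acsl1, which activates fatty acids, rose by 1.48 ± 0.33 (adjusted p = 0.0102) and 1.33 ± 0.33 (adjusted p = 0.0157), and Mgll, a monoglyceride lipase, by 1.42 ± 0.31 (adjusted p = 0.00911) and 1.46 ± 0.31 (adjusted p = 0.00805).

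Cpt1a, the gate of fatty acids into mitochondria, rose by 0.54 ± 0.17 in E2f1-/- livers (adjusted p = 0.0424) and missed the threshold in E2f2-labelled livers (0.51 ± 0.17, adjusted p = 0.0513). The first call was lost without any 1 of E2f1-/- replicates 2, 3 or 4, E2f2-labelled replicates 1 or 2, or wild-type replicates 2, 3 or 4. Ehhadh was not called (1.20 ± 0.46, adjusted p = 0.0887, and 0.78 ± 0.46, adjusted p = 0.254). Apoa5 rose by 0.96 ± 0.25 (adjusted p = 0.0191) and 1.74 ± 0.25 (adjusted p = 0.00107), the first call being lost without E2f1-/- replicates 3 or 4. Besides Lpl, the called falls included Cd36, a fatty acid transporter (-1.45 ± 0.31, adjusted p = 0.00779, and -1.79 ± 0.31, adjusted p = 0.00281), and Ucp2 (-1.41 ± 0.25, adjusted p = 0.00407, and -1.22 ± 0.25, adjusted p = 0.00717). Cidec, a lipid droplet protein, fell in E2f2-labelled livers by the probe given above, and its dimmer probe was not called (-0.54). The number higher in E2f1-/- livers was 20 without wild-type replicate 2. The number higher in E2f2-labelled livers was 10 without wild-type replicate 1 or 2, 11 without E2f2-labelled replicate 3 and 12 without E2f2-labelled replicate 4. It was 13 under quantile normalization, 11 under median centring, and 12 under the series matrix values or without the filter on dim probes.

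Of the 16 remaining CYP4 genes, 10 were tested, and 7 of these were called higher and 1 lower in each of the 2 comparisons with wild type (medians 1.04 and 0.99), with 2 not called in either. Over all genes, 12.8% and 12.5% were called higher and 7.48% and 7.85% lower in these comparisons. With the slide as a block, 2 were called lower in E2f2-labelled livers. Cyp4a12a had mean levels of 3.89 ± 0.57 in E2f1-/- livers, 5.32 ± 0.62 in E2f2-labelled livers and 0.46 ± 2.17 in wild-type livers (SD, n = 4 each), a rise of 3.43 ± 0.82 (adjusted p = 0.0138) and 4.87 ± 0.82 (adjusted p = 0.0027). Cyp4a12b moved alike, by 3.48 ± 0.81 (adjusted p = 0.0119) and 4.91 ± 0.81 (adjusted p = 0.00238). These 2 genes are near-identical copies whose values are uncertain as values of single genes, they are male-biased in mouse liver, and the sex of the mice is not given.

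Cyp4f14, which inactivates leukotrienes, rose by 1.94 ± 0.39 in E2f1-/- livers (adjusted p = 0.00648) and 1.68 ± 0.39 in E2f2-labelled livers (adjusted p = 0.0118). Cyp4f16 fell by 1.39 ± 0.24 (adjusted p = 0.00349) and 1.80 ± 0.24 (adjusted p = 0.000724). In E2f2-labelled livers the Cyp4a12 genes were thus called while none of Cyp4a10, Cyp4a14, Cyp4a31 and Cyp4a32 was, and the difference between these sets was not tested.

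Clock genes and genes of the fasting state differed in the same livers. Of 15 tested clock genes, 9 were called higher and 1 lower in E2f1-/- livers (median 1.46), beside 12.8% and 7.48% of all genes. In E2f2-labelled livers 9 were called higher and 2 lower (median 1.17), beside 12.5% and 7.85% of all genes. Dbp rose by 2.91 ± 0.52 (limma adjusted p = 0.004) and 2.67 ± 0.52 (limma adjusted p = 0.00558). Ciart was not well above background on any wild-type array and passed the filter through the other groups. Counted from the lowest signal well above background, it was at least 4.73-fold and at least 2.48-fold higher. Its limma calls (adjusted p = 8.8e-05 and 0.000329) use the dim wild-type values and are no test of these bounds. Arntl fell by 2.31 ± 0.55 (adjusted p = 0.013) and 2.91 ± 0.55 (adjusted p = 0.00463).

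Of 12 genes that respond to fasting or insulin, 6 were called higher and 1 lower in E2f1-/- livers (median 0.75), beside 12.8% and 7.48% of all genes. In E2f2-labelled livers 4 were called higher and 2 lower (median 0.70), beside 12.5% and 7.85% of all genes. Pck1, the enzyme that commits to gluconeogenesis, rose by 2.32 ± 0.24 (adjusted p = 0.000211) and 2.12 ± 0.24 (adjusted p = 0.000242). Igfbp1, which insulin represses, was at -2.0 ± 0.75 in E2f1-/- livers (adjusted p = 0.0786) and fell by 2.81 ± 0.75 in E2f2-labelled livers (adjusted p = 0.021). That call was lost without any 1 of E2f2-labelled replicate 3 or wild-type replicates 1 or 2. The summed linear level of the list was 443 to 998 in E2f1-/- livers and 560 to 638 in E2f2-labelled livers. In wild-type replicates 1 to 4 it was 1420, 1360, 381 and 485, so replicates 1 and 2 stood above the other 2. The list's median log2 level ran the other way, at 3.23, 3.1, 4.34 and 4.12 in wild-type replicates 1 to 4. It was 4.1 to 5.47 in E2f1-/- livers and 4.22 to 4.73 in E2f2-labelled livers. The sum weighs the brightest genes most, and Igfbp1 had the list's highest wild-type mean level, 8.85 ± 1.76 (SD, n = 4). The number higher in E2f1-/- livers was 3 without any 1 of E2f1-/- replicates 3 or 4 or wild-type replicates 1 or 2, and the number higher in E2f2-labelled livers was 7 with the slide as a block. The part of the hour of killing or of the time since the last meal in the values of the members was not tested.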

How the data were processed

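Liver RNA of 12 mice was hybridised to one-colour Agilent arrays. The intensity used is the linear, background-corrected processed signal that the file headers describe, deposited as it came from Agilent Feature Extraction 10.7.3.1 (version from the submitters' processing notes). The authors' series matrix, with log2 values per the labels and no stated normalization, was an alternative. Spots flagged as outliers and control spots were left out, spots of a probe averaged, and log2 signals set relative to each array's 75th percentile. Tested probes exceeded background clearly on 3 or 4 arrays of some group, and the brightest probe stood for a gene. All 12 arrays were fitted once in limma 3.58.1 (R 4.3.3, data.table version 1.17.8), without covariates, with Benjamini-Hochberg adjustment and a call under 0.05. The fit was tested on simulated data.

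Probe positions are mm9, from the files, and the RefSeq list of genes gave names only. Replicates are separate mice per the labels. Replicate numbers match slides. Of 12 same-number pairs, 10 correlated above 0.1 (r from 0.04 to 0.42), so arrays of a slide resembled each other. The number was read as the slide, a hybridisation block, and not as a pairing of mice. The reported fit leaves this block out, and the block entered as an alternative. Members and lists were chosen with earlier results of these data known, so no count here is independent support. Named genes were drawn from the members, up to 3 called rises and 3 called falls per list and comparison with wild type, the genes of the ketone body list, and a fixed set (Rxra, Ppargc1a, Creb3l3, Klb, Cpt1a, Ehhadh, Cyp4a12a, Cyp4a12b and Pparg). Not every gene so chosen is printed. For each member the 3 genes closest in profile were found, and some of them are named. Lists were partners, ketogenesis, other CYP4 genes, other targets, relatives, clock, fasting and cell type markers, less some genes that are not reported here. Alternatives were median centring, quantile normalization, the series matrix values, the background correction (normexp, offset 50), 2 filters, outlier spots, mean or single probes, replicate block, array weights, 2 groups only, and each array left out.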

Additional observations from a re-analysis of the deposited data

Results flagged for a closer look

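In 2 groups, 1 array of the Cyp4a31 probe A_55_P2024033 stood apart from the other 3. E2f2-labelled replicate 2 was at -2.17, with the others between -1.26 and -1.10, and wild-type replicate 1 was at -1.08, with the others between -0.69 and -0.62. Among the other named genes, a single array stood apart in 6 groups. Pparg was at 1.96 in E2f1-/- replicate 1 (others 0.64 to 0.76). In E2f1-/- replicate 3, Bdh2 was at 3.91 (others 3.16 to 3.25) and Cyp4f14 at 6.65 (others 5.87 to 5.98). Med1 was at 4.68 in E2f2-labelled replicate 1 (others 5.45 to 5.56) and Igfbp1 at 4.94 in E2f2-labelled replicate 3 (others 6.28 to 6.54). Cidec was at 3.46 in wild-type replicate 1 (others 1.01 to 1.35). These are 8 of 201 groups of 4 arrays looked at, and chance alone gives such a gap in about 1 of 20 groups.

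By its brightest probe, Pdhb was 1.37 ± 0.18 higher in E2f2-labelled than in E2f1-/- livers (limma adjusted p = 0.0013). Its other 2 probes gave 0.10 and -0.07, and the call was lost with the mean of all probes (0.47), under normexp background correction (0.08) and without any 1 E2f2-labelled array (-0.03 to 0.17), where another probe was the brightest.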

How the results depend on the processing

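Ppara, Angptl4 and Fgf21 kept their direction and their call in E2f1-/- livers under all 24 alternatives. In E2f2-labelled livers, no member was called higher, against 2 in the reported fit, under median centring, quantile normalization, normexp background correction or the series matrix values, without the filter on dim probes, or with only the 2 groups compared (0 in each). There, 2 members were called lower under normexp, the filter on all 12 arrays, array weights and the fit of 2 groups, and 1 under quantile normalization, series matrix values and the replicate block, against 0. The replicate block called 1 member lower in E2f2-labelled livers, Vnn1 (-1.08, adjusted p = 0.0147), and changed no other member's call. With it, 5442, 5909 and 415 genes were called in the 3 comparisons, against 4173, 4183 and 328, sharing 4057, 4103 and 290. Of 12 arrays, 11 correlated best with the arrays of their own slide. With the mean of all probes, 5 members were called higher in E2f1-/- livers, where 2698 of 20572 genes were. The difference of Cyp4a10 in E2f2-labelled livers turned to -0.03 under normexp and -0.12 under quantile normalization and series matrix values, and that of Cyp4a31 to -0.08 under the last 2. Genes called numbered 2689 in E2f1-/- livers without the filter on dim probes, where more genes were tested. Between E2f2-labelled and E2f1-/- livers they numbered 214 under normexp, 202 under the filter on all 12 arrays and 503 with array weights. The causes were not tested. Leaving out 1 array gave 2486 to 4861 called genes in E2f1-/- livers (2486 without wild-type replicate 2, 2561 without E2f1-/- replicate 3) and 2522 to 5132 in E2f2-labelled livers (2522 without wild-type replicate 2). It gave 2 to 6 members called higher in E2f1-/- livers, and 0 to 2 higher and 0 to 2 lower in E2f2-labelled livers. It also gave differences of 0.00 to 1.12 for Pdk4 in E2f1-/- livers and, in E2f2-labelled livers, -0.22 to 0.36 for Cyp4a10 and -0.22 to 0.41 for Cyp4a31. Signal over background did not limit the members, which were well above it on the 12 arrays.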
